A study of Mus musculus with 144 samples.

Results

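Microglia sorted from the retina of mice given the low dose of ripasudil were compared here with microglia of mice given PBS, across all genes. Both groups were single cells of Iba1-EGFP mice, a strain in which cells that express Iba1 carry a green fluorescent protein. The low-dose mice received ripasudil at 1 mg/kg and were 14 weeks old, and the vehicle mice received PBS and were 10 to 14 weeks old. There were 48 cells in a group, 16 per plate on 3 plates. A cell was kept if 1000 or more genes were at FPKM 1 or above, and this left 47 low-dose and 46 PBS cells, 93 of 96 in the 2 groups and of 144 cells in the 3 groups of the series. The 3 cells left out had 876, 896 and 906 such genes, and the kept cells nearest to the limit had 1144 and 1209. FPKM is the read number of a gene, scaled by gene length and by the total of the cell.

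The labels name no animal, so each group counted as 1 sample, and no p-value, standard error of a group difference or number of changed genes can be given. Cells of a group are not replicates of a treatment, and every SD and interval below describes cells. Age could not be told apart from treatment, nor could the position on the plate, since PBS cells filled the wells before those of the low dose on all 3 plates. The EGFP of this strain marks any cell that expresses Iba1, resident microglia and other macrophages alike. The labels do not say whether the eyes of these mice were injured, and the series concerns the response to optic nerve injury.

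Ripasudil blocks the kinases ROCK1 and ROCK2, which the small GTPase RhoA activates. ROCK phosphorylates the myosin phosphatase, myosin light chain, LIM kinases and proteins that tie actin to the membrane, and so sets the tension of the actin cortex. In microglia this pathway is known for its part in the change from branched to rounded cells, in migration and in the release of cytokines. Gpr84, named in the title of the series, is a receptor for medium-chain fatty acids that couples to inhibitory G proteins and is made by activated microglia.

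The cells carried the markers of microglia. All 47 low-dose and all 46 PBS cells had at least 3 of the 10 microglial markers, and Csf1r and C1qa were at FPKM 1 or above in each of them. Tmem119 was present in 42 and 40 cells and P2ry12 in 36 and 39. At least 3 of 8 markers were found in 8 low-dose and 10 PBS cells for neutrophils, in 4 and 5 for border macrophages and in 6 and 7 for Müller glia, whose list holds genes that microglia also express, such as Apoe. For rods, 7 low-dose and 6 PBS cells had at least 3 of 10 markers. The median summed FPKM of the rod markers was 0.40 and 0.46, and the highest value was 4949 in a low-dose cell and 346 in a PBS cell. For neutrophil markers the medians were 5.30 and 9.40, and the highest sums 127224 in a low-dose and 83839.5 in a PBS cell. For border macrophage markers they were 0.16 and 0.77, with highest sums of 4722 and 4423. No setting left out cells by neutrophil or border macrophage markers. Of the rod markers, Pde6a was at 0 or below an FPKM of 1 in every cell. Assigned reads ranged from 50760 to 4668720 in low-dose cells and from 34021 to 4477900 in PBS cells, with medians of 1801910 and 1626290.

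Low-dose cells had fewer detected genes, that is genes at FPKM 1 or above, than PBS cells. The median was 2418 genes in low-dose cells (1209 to 7643) and 3143 in PBS cells (1144 to 9077), and the groups overlapped over almost all of their range. Within plates the medians were 1604 against 2562.5 on plate 1, 3061.5 against 3889.5 on plate 2 and 2421.5 against 2752 on plate 3. The low-dose median was thus the smaller on each plate, with a mean plate difference of -705.67. Median assigned reads were higher in the low dose on plates 1 and 3 (1908190 against 1283860, and 2091080 against 1539710) and lower on plate 2 (1653000 against 2120580). When each cell was thinned to 300000 reads, the median was 2541 genes in 46 low-dose cells and 3379 in 41 PBS cells, and the order held on every plate (2146 against 2818, 2718 against 4037 and 2608 against 3239). The 100 most abundant genes of each cell took a median of 53.0% of its reads in the low dose and 41.9% in PBS on plate 1, 40% and 37.4% on plate 2, and 42.4% and 41.9% on plate 3. In the cells of 2000 or more detected genes the difference was turned, with a mean plate difference of 622.67. That limit selects cells by the quantity compared, so the turn may follow from the selection.

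**Figure D1:**
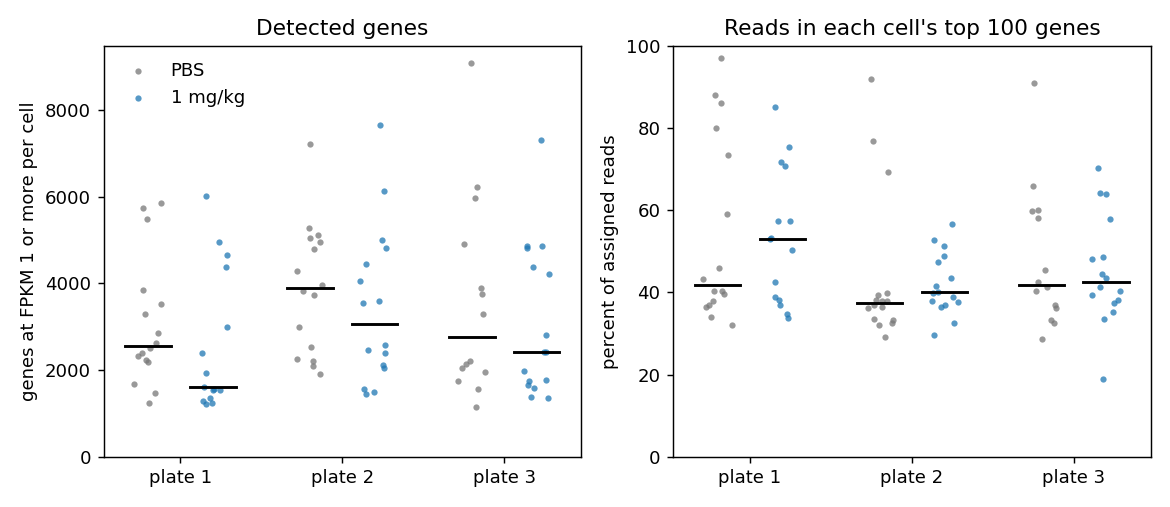
Genes at FPKM 1 or above per cell (left) and percent of assigned reads in the 100 most abundant genes of each cell (right), by plate, for PBS cells (grey) and cells of the 1 mg/kg group (blue); each point is a cell and each bar a median. The low-dose median of detected genes was below the PBS median on all 3 plates (1604, 3061.5 and 2421.5 against 2562.5, 3889.5 and 2752), while the cells of both groups overlapped widely.

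The comparison of all genes took the difference of the mean log2(FPKM + 1), low dose minus PBS, within each plate, and averaged the 3 plate differences. It covered the 4754 genes that 25% or more of either group had at FPKM 1 or above. Of these, 3111 (65.4%) were lower in the low dose and 1643 higher, with a median of -0.19 (-0.16, -0.11 and -0.27 on plates 1, 2 and 3). The sign was the same on all 3 plates for 1533 genes, of which 1165 were lower and 368 higher. A gene was counted as past the fold where it differed by 1 or more on this scale with the same sign on all plates. This held for 235 genes in the lower direction (4.94% of those tested) and 24 in the higher direction (0.505%). Just inside the limit lay Rpn2 at -1.0001 and Rps13-ps5 at 1.007, and just outside it Smn1 at -0.9994 and Rps13-ps1 at 0.977.

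Most of the lower values came with fewer cells that had the gene. The share of cells with the gene was smaller in the low dose for 3547 of the 4754 genes (74.6%), with a median difference of -6.94 percentage points over all genes. Among cells that did have the gene, the mean level was higher in the low dose by a median of 0.25 on the log2 scale, and it was lower for 1614 genes. Of the 235 genes past the fold in the lower direction, 227 were in fewer low-dose cells, with a median of -20.8 points over the 235. The level in the cells that had the gene was lower for 176 of the 235. Of the 24 in the higher direction, 21 were in more low-dose cells and all 24 had a higher level in the cells with the gene. Both sets were chosen by a mean that holds share and level together, so these counts follow in part from the choice. The difference was larger for genes in few cells. Its median was -0.26 for the 1396 genes found in less than 30% of cells on average, -0.19 for 1704 genes at 30 to 50%, -0.17 for 842 at 50 to 70%, -0.042 for 550 at 70 to 90% and -0.076 for 262 at 90% or more.

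**Figure D2:**
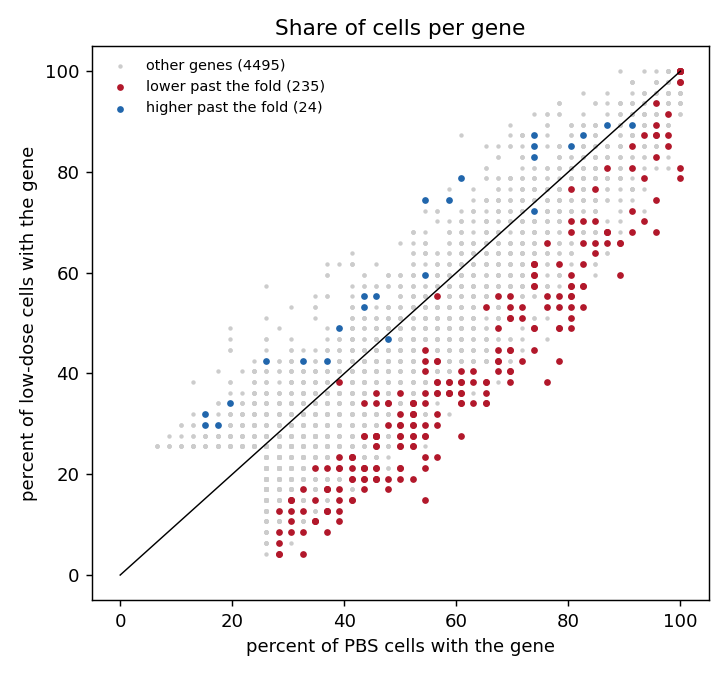
Percent of the 46 PBS cells (x axis) and of the 47 low-dose cells (y axis) with each of the 4754 genes at FPKM 1 or above; each point is a gene, red marks the 235 past the fold in the lower direction, blue the 24 in the higher direction, and the line marks equal shares. The cloud lies below the line, with 3547 genes in a smaller share of low-dose cells.

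The number of detected genes moved with these differences. When each gene's slope on the detected genes of a cell was removed, the median over all genes went from -0.19 to 0.060, and 63 genes were past the fold in the lower and 111 in the higher direction, against 235 and 24 without the adjustment. In the cells of 2000 or more detected genes these counts were 124 and 255 with a median of 0.12, and with the log2 ratio of mean FPKM they were 368 and 302 with a median of 0.0018. All 235 stayed below 0 and all 24 above 0 after the adjustment, and 62 and 24 of them were still past the fold. Both sets were chosen for large differences in the same cells, so the kept signs follow in part from the choice. Each list median below is given with its adjusted value. The share of the detected genes in each single result was not tested.

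The genes lower in the low dose on all plates by the widest margin came from several functions. Those named by their smallest plate difference were Psmd3, Clic1, Gpr108, Rps6ka1, Ccl2, Ndufb9, Nme1, Lyz2, Psmb3, Psap, Apmap, Cd74, Nol7 and Ndufa7. They hold 2 proteasome subunits, 2 subunits of mitochondrial complex I, a chemokine, the lysosomal proteins Lyz2 and Psap, and the invariant chain Cd74. All 14 stayed below 0 after the adjustment for detected genes, at -2.06 (Clic1) to -0.87 (Psap). The 14 were chosen from the same cells for differences far below 0, so this sign follows in part from the choice.

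**Figure D3:**
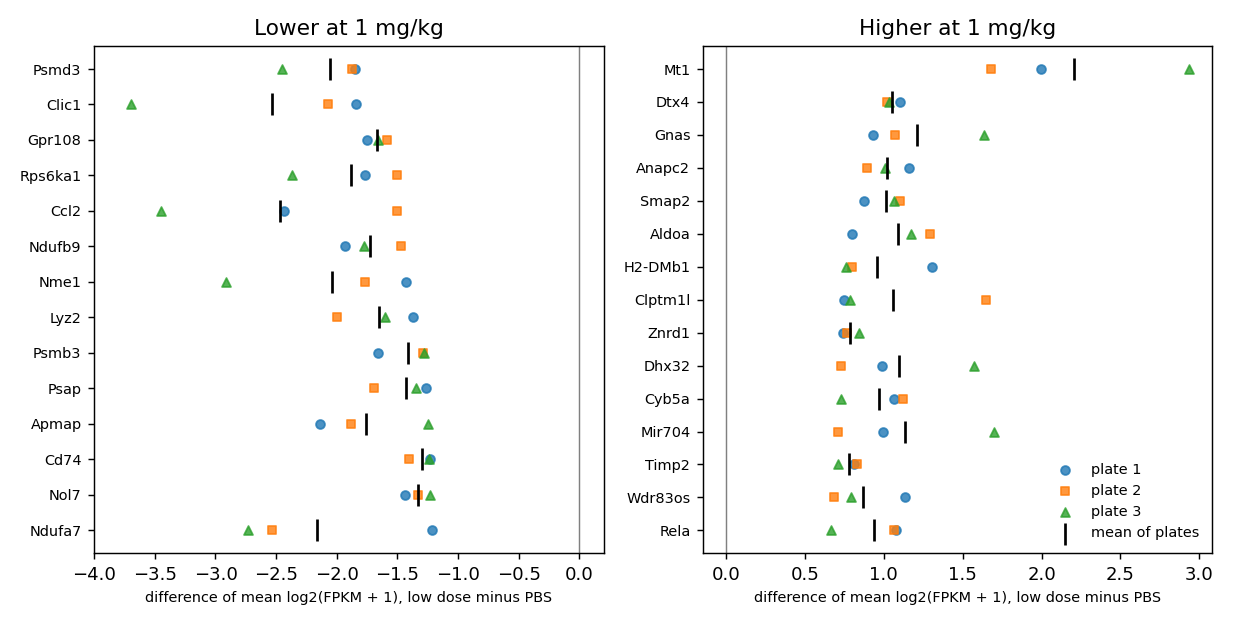
Difference of mean log2(FPKM + 1), low dose minus PBS, on plates 1, 2 and 3 (circle, square, triangle) and their mean (bar) for 14 genes named in the lower and 15 in the higher direction. The plate values ran from -1.22 (Ndufa7, plate 1) to -3.70 (Clic1, plate 3) in the lower direction, and Mt1 stood apart in the higher direction at 2.00, 1.68 and 2.94.

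Clic1, a redox-sensitive protein that can insert into membranes as a chloride channel, had the lowest value of these. Its FPKM was 0 to 1655 with a median of 32.7 in low-dose cells and 1.20 to 2574 with a median of 291 in PBS cells, and the groups overlapped. Mean log2(FPKM + 1) was 4.70 ± 3.70 (SD, 47 cells) against 7.23 ± 2.83 (SD, 46 cells), a plate-matched difference of -2.54 (-1.84, -2.07 and -3.70 on plates 1 to 3; -2.06 adjusted). It was present in 37 low-dose cells (78.7%, exact 95% interval 64.3 to 89.3%) and in all 46 PBS cells (92.3 to 100%). The cells fell into a group near 0 and a group with high values, and an FPKM of 100 or more, a level chosen after the values were seen, was reached by 21 low-dose and 32 PBS cells. On each plate more PBS cells were above that level, 10 against 7, 11 against 8 and 11 against 6. In the cells of 2000 or more detected genes the difference of Clic1 was -0.42. Clic1 (ENSMUSG00000007041) lies at chr17:35049966-35058749 on the plus strand of GRCm38.

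Ccl2, the chemokine that draws monocytes through the receptor Ccr2, had a similar split of cells. Low-dose cells had an FPKM of 0 to 3276 with a median of 0.98, and PBS cells 0 to 3423 with a median of 59.3. The highest cells of both groups were thus alike, and 8 low-dose against 22 PBS cells reached an FPKM of 100 (2 against 7, 4 against 7 and 2 against 8 on plates 1 to 3). The means were 2.79 ± 3.71 (SD, 47 cells) and 5.23 ± 3.98 (SD, 46 cells), with a plate-matched difference of -2.46 (-2.44, -1.51 and -3.45; -1.98 adjusted, and -0.59 as the log2 ratio of mean FPKM). Ccl2 was present in 23 low-dose cells (48.9%, 34.1 to 63.9%) and 34 PBS cells (73.9%, 58.9 to 85.7%). Its gene (ENSMUSG00000035385) lies at chr11:82035571-82037453. Of the 17 chemokine and receptor genes measured 12 were lower, with a median of -0.33 (-0.04 adjusted). Ccl3 was at -0.97, Ccl4 at -0.43 and Ccl12, found in every cell of both groups, at -0.85 with unequal signs (-0.23, 0.40 and -2.73).

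Lyz2 and Psap were found in almost every cell, so presence hardly differed between the groups. The level differed, and fewer low-dose than PBS cells had high values of either gene. Lyz2, the lysozyme of macrophages, had an FPKM of 1.28 to 30239 with a median of 36.6 in low-dose cells and 1.82 to 67818 with a median of 514 in PBS cells. An FPKM of 100 or more was reached by 22 of 47 low-dose and 33 of 46 PBS cells, and the means were 6.75 ± 4.05 and 8.47 ± 3.46 (SD over cells), a difference of -1.65 (-1.37, -2.00 and -1.60; -1.33 adjusted). As the log2 ratio of mean FPKM it was -0.24, and its reads may be shared with the close copy Lyz1. Psap, the precursor of the saposins that help to degrade sphingolipids in lysosomes, had a median FPKM of 220 (0.56 to 1529) against 407 (1.78 to 5453) and a difference of -1.43 (-1.26, -1.69 and -1.35; -0.87 adjusted, and -0.26 in the cells of 2000 or more detected genes). The plot of single cells shows 2 levels of Psap in both groups, with few cells between them, and 25 low-dose against 31 PBS cells at an FPKM of 100 or more.

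**Figure D4:**
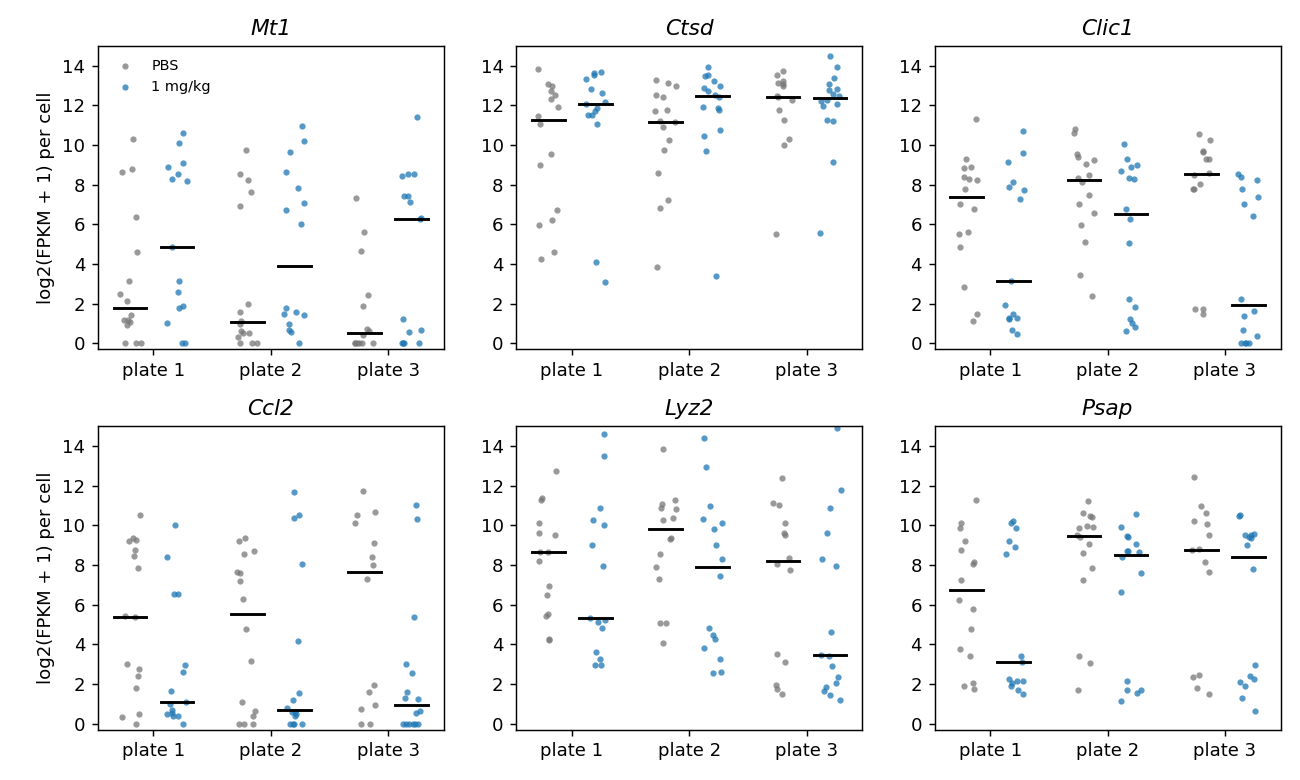
log2(FPKM + 1) of Mt1, Ctsd, Clic1, Ccl2, Lyz2 and Psap in each kept cell, by plate, for PBS (grey) and the 1 mg/kg group (blue); bars are medians. Values fell into a low and a high set of cells for most of these genes, and the groups differed in how many cells were in the high set (Mt1 21 low-dose against 9 PBS cells at an FPKM of 100 or more, Clic1 21 against 32, Ccl2 8 against 22).

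Other genes of this set were below FPKM 1 in most low-dose cells. Psmd3, a subunit of the lid of the proteasome, was at FPKM 1 or above in 7 low-dose cells (14.9%, 6.2 to 28.3%) and 25 PBS cells (54.3%, 39 to 69.1%), with a difference of -2.06 (-1.85, -1.87 and -2.45). The complex I subunit Ndufa7 was in 18 and 30 cells (-2.16) and Ndufb9 in 19 and 28 (-1.73). The kinase Rps6ka1, which acts downstream of ERK, was in 18 and 35 cells (-1.88). Gpr108, a protein of the Golgi, was in 6 and 17 cells with plate values that lay close together (-1.75, -1.58 and -1.66). Each of these genes was in fewer low-dose cells, and its level in the cells that had it was also lower for all but Rps6ka1 (0.67 higher). Psmd3, Rps6ka1, Nme1, Ndufb9, Apmap, Nol7 and Cd74 share exon bases with another annotated gene, and Psmb3 has near-identical copies, so part of their reads may belong elsewhere, since the use of strand was not given in the sources used here. Clic1, Ccl2, Ndufa7, Gpr108 and Psap share none.

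Cd74, the chaperone of MHC class II molecules, is a case where the direction depended on the average. It was in 27 low-dose and 37 PBS cells, and the difference of the mean log2 values was -1.29 (-1.23, -1.41 and -1.24). The mean FPKM was 703 in the low dose and 365 in PBS, with a highest cell of 17259.7 and 13126. With the log2 ratio of mean FPKM the difference was 1.32.

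In the higher direction Mt1 stood apart. Mt1 encodes metallothionein 1, a small cysteine-rich protein that binds zinc and copper and is transcribed in response to metals, oxidants and glucocorticoids. Low-dose cells had an FPKM of 0 to 2755 with a median of 63.2, and PBS cells 0 to 1282 with a median of 1.24, so that the groups overlapped. The means of log2(FPKM + 1) were 4.87 ± 3.92 (SD, 47 cells) and 2.71 ± 3.26 (SD, 46 cells), a plate-matched difference of 2.20 (2.00, 1.68 and 2.94; 2.65 adjusted). Mt1 was present in 35 low-dose cells (74.5%, 59.7 to 86.1%) and 25 PBS cells (54.3%, 39 to 69.1%), and at an FPKM of 100 or more in 21 and 9 (7 against 3, 7 against 5 and 7 against 1 on plates 1 to 3). In the higher-dose group, measured against the same PBS cells, the difference was 0.29. The difference at the low dose was 1.47 with a pseudocount of 10, which shrinks the differences of low values, and between 2.06 and 3.66 in 9 other settings that used every plate.

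Mt2, the neighbouring metallothionein gene, was in 2 cells of each group and differed by -0.025. The promoters of both genes are shown because they lie side by side on chromosome 8 and hold the same motif, while their values differed. The sequences are from RefSeq (GRCm38.p6) and run from 250 bases before to 50 bases after the annotated start, on the plus strand, at chr8:94178839-94179138 for Mt1 and chr8:94172368-94172667 for Mt2. Capitals mark the core of the metal response element, searched as TGCGCNC and TGCACNC on both strands, where matches may touch. The Mt1 window held 3 matches and the Mt2 window 4.
Mt1: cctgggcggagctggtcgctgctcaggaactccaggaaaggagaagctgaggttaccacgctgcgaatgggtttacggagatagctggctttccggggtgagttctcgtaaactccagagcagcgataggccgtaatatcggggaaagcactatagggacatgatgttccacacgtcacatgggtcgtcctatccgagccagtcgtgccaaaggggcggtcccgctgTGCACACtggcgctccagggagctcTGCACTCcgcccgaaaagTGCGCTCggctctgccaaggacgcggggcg
Mt2: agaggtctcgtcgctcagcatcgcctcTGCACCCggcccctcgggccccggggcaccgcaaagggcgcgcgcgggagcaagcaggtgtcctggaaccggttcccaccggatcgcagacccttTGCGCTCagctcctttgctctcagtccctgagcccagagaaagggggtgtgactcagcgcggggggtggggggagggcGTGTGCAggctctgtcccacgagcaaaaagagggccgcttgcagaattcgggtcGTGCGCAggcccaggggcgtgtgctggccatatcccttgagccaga
At least 1 match was present in 25.7% of all 32851 promoter windows and at least 2 in 7.11%. Counted by gene, 28.2% of 27025 genes had a window with a match, and so did 9 of the 34 measured metal and redox genes with a window (26.5%). A match is a description of these letters and not of a factor bound there.

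The other 14 genes named in this direction lay nearer to 1. Gnas, the stimulatory G protein alpha subunit that activates adenylyl cyclase, was at 1.21 (0.93, 1.07 and 1.63; 1.44 adjusted), with a median FPKM of 11 against 1.92 and presence in 35 low-dose and 27 PBS cells. It shares exon bases with 2 antisense genes. Dtx4, an E3 ubiquitin ligase of the Deltex family, was at 1.05 with almost equal plates (1.11, 1.02 and 1.04) and was in 15 and 7 cells. Aldoa, the aldolase of glycolysis, was at 1.09 (0.80, 1.29 and 1.17), with a median FPKM of 244 against 80.1 and 31 against 20 cells at an FPKM of 100 or more. Rela, the p65 subunit of NF-kB, was at 0.93 in 16 and 12 cells, Anapc2, a subunit of the anaphase-promoting complex, at 1.02 in 14 and 7, and Timp2, an inhibitor of metalloproteinases, at 0.78 in 23 and 19. Smap2, Clptm1l, H2-DMb1, Znrd1, Dhx32, Cyb5a, Wdr83os and Mir704 filled the set, at 0.78 to 1.13. Mir704 lies within exon bases of Pdia4, an enzyme that forms disulfide bonds in the endoplasmic reticulum, which was itself at 0.90, so these reads cannot be assigned to the microRNA. All 15 genes had adjusted values above their unadjusted ones, at 1.03 (Znrd1) to 2.65 (Mt1). The adjustment also raised the median of all genes, from -0.19 to 0.060, so a rise is not particular to these 15.

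Genes at FPKM 1 or above in nearly every cell leave little room for a difference in presence at that limit. They can still split into low and high cells, as Psap did, with 25 low-dose and 31 PBS cells at an FPKM of 100 or more. There were 89 named genes, leaving out gene models and pseudogenes, in at least 95% of the cells of both groups. Of these 46 were lower and 43 higher, with a median of -0.028 that was not of the same sign on the plates (-0.055, 0.11 and -0.31). On all 3 plates 16 were lower and 7 higher. Those lower were led by Lyz2 and Psap, by the ribosomal gene Rpl4 (-1.23), which has near-identical copies, and by B2m (-1.15) and H2-D1 (-1.06), the light chain and a heavy chain of MHC class I. Cd52, a surface glycoprotein, was at -0.97 and Gpx1, a glutathione peroxidase, at -0.95. The 7 higher genes were the lysosomal proteases Ctsd (0.91; 1.35, 1.25 and 0.12) and Ctsb (0.66; 1.43, 0.44 and 0.12), the translation factor Eef1a1 (0.89), ubiquitin gene Ubb (0.61), the chaperone Hspa5 (0.42), the NADPH oxidase subunit Cyba (0.34) and the Fc receptor chain Fcer1g (0.32). Ctsd had a median FPKM of 4881 (7.47 to 23081) in the low dose and 3449 (13.3 to 14648) in PBS. B2m had a median of 3155 (10.9 to 12522) and 4823 (44.6 to 39562). Ctsd and B2m were in every cell and lay in opposite directions, and the groups overlapped for each. The cause was not tested.

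Gpr84, Tnf and Il1a, the genes in the title of the series, were examined for level as well as presence. Gpr84 was in 36 cells of each group (76.6% with an exact 95% interval of 62.0 to 87.7%, and 78.3%, 63.6 to 89.0%), and its FPKM ranged from 0 to 1784 with a median of 3.12 in the low dose and from 0 to 1534 with a median of 40.1 in PBS. In the cells that had it, mean log2 FPKM, without the added 1, was 5.29 and 5.89, lower in the low dose on each plate (-0.57, -0.76 and -0.46). Over all cells the difference was -0.53 with unequal signs (-0.37, -1.24 and 0.01; 0.19 adjusted), and 18 cells of each group reached an FPKM of 100. The share of cells with Gpr84 differed by -1.67 points, with no common sign on the plates (66.7% against 68.75%, 75% against 87.5% and 87.5% against 78.6%). After thinning to 300000 reads the shares were 69.3% and 76.3%, a difference of -7.02 points, and in the cells of 2000 or more detected genes the difference was 8.65 points. Gpr84 (chr15:103308235-103310612, minus strand) shares exon bases with a gene model on the opposite strand.

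Tnf and Il1a had the opposite form, with fewer cells but, with the plates pooled, no lower level in the cells that had them. Tnf was in 25 low-dose cells (53.2%, 38.1 to 67.9%) and 35 PBS cells (76.1%, 61.2 to 87.4%), and its mean level in those cells was 5.44 and 5.07, with unequal signs on the plates (0.84, 0.60 and -0.99). Il1a was in 30 (63.8%, 48.5 to 77.3%) and 40 cells (87.0%, 73.7 to 95.1%). Its level was 5.84 and 5.14, also with unequal signs on the plates (-0.03, 1.27 and 0.82). The median FPKM over all cells was 1.46 against 5.76 for Tnf and 2.11 against 13.1 for Il1a. On plate 3 the low-dose median of Il1a was the higher, at 5.94 against 2.81. At an FPKM of 100 or more the groups were close, at 13 and 14 cells for Tnf and 16 and 17 for Il1a. After the adjustment for detected genes the differences went from -0.99 to -0.10 for Tnf and from -0.73 to 0.15 for Il1a, so that the second changed sign.

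All 3 title genes were present together in 20 of 47 low-dose cells (42.6%) and 29 of 46 PBS cells (63.0%). None of them was present in 5 and 3 cells. These classes also differed in the number of genes detected. The low-dose cells with all 3 had a median of 4554 detected genes, those with 2 had 1984, those with 1 had 1659 and those with none 1446. In PBS the medians were 3884, 2805.5, 2097 and 2210. Cells with all 3 genes were therefore those with many detected genes in both groups, and the part of this in the lower share was not tested.

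The pathway that ripasudil acts on was described by 4 lists, whose members and those of the other lists had to reach FPKM 1 in 10% or more of either group. Among the 10099 genes that pass this limit, 63.3% were lower, 2.39% were past the fold in the lower and 0.238% in the higher direction, and the median was -0.12. Of the 22 ROCK kinases and direct effectors 18 were measured, 17 were lower and 3 were past the fold, with a median of -0.48 (-0.22, -0.62 and -0.47). The adjusted median was -0.29, and at the higher dose, against the same PBS cells, the median was -0.66. The 3 were Marcks (-1.20), which binds actin under the membrane, Myl12a (-1.16), a regulatory light chain of non-muscle myosin, and Msn (-1.16), the ERM protein moesin that ROCK phosphorylates.

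The 3 were found in most cells of both groups. Marcks had a median FPKM of 42.5 (0 to 595) in the low dose and 80.4 (0.34 to 2056) in PBS and was in 33 and 43 cells, and its level in the cells that had it was 0.07 higher in the low dose. Msn was in 27 (57.4%, 42.2 to 71.7%) and 38 cells (82.6%, 68.6 to 92.2%), with a median FPKM of 9.62 and 68.1. Myl12a was in 32 and 40 cells with plate values of -1.0, -1.22 and -1.25, and it overlaps Myom1 on the opposite strand. The kinases themselves were found in few cells. Rock1 was in 9 low-dose (19.1%, 9.15 to 33.3%) and 14 PBS cells (30.4%, 17.7 to 45.8%) with a difference of -0.47, and Rock2 in 3 (6.38%, 1.34 to 17.5%) and 11 cells (23.9%, 12.6 to 38.8%) with -0.57, each lower on all 3 plates. The myosin phosphatase catalytic subunit Ppp1cb was in 3 and 12 cells (-0.65) and its targeting subunit Ppp1r12a in 8 of each (-0.31). The member above 0 was Cfl1, the actin-severing protein cofilin, present in every cell of both groups (0.13; 0.19, 0.74 and -0.53).

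The list of RhoA, its relatives and their regulators was mixed. Of 34 measured GTPases and regulators 22 were lower and 12 higher, with a median of -0.27 (0.06 adjusted) and 1 past the fold, the GTPase-activating protein Arhgap1 (-1.05), which was in 4 low-dose and 14 PBS cells. Rhoa itself differed by -0.06 with unequal signs (1.01, -1.36 and 0.16), and its relatives were at -0.87 for Cdc42, 0.51 for Rac1, 0.07 for Rhob and 0.35 for Rhoc, none with the same sign on the 3 plates. Was, the Wiskott-Aldrich protein that links Cdc42 to the ARP2/3 complex, was at -0.91 on like signs (-1.12, -0.98 and -0.62). Of 36 actin genes 28 were lower, with a median of -0.32 (-0.04 adjusted), and 4 were past the fold, Coro1a (-1.45), Tpm4 (-1.43), Capzb (-1.36) and Actr2 (-1.30), which coat, cap or branch actin filaments. Arpc3, another subunit of ARP2/3, was higher on all plates (0.77; 0.98, 0.89 and 0.43), so members of that complex lay in both directions. Actb was at -0.44 and Tmsb4x, the main actin-sequestering peptide, at -0.07, both in all cells. The 11 measured targets of serum response factor and YAP had a median of -0.50 that was carried by plate 1 (-0.94, -0.26 and 0.05; 0.17 adjusted), and none was past the fold.

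**Figure D5:**
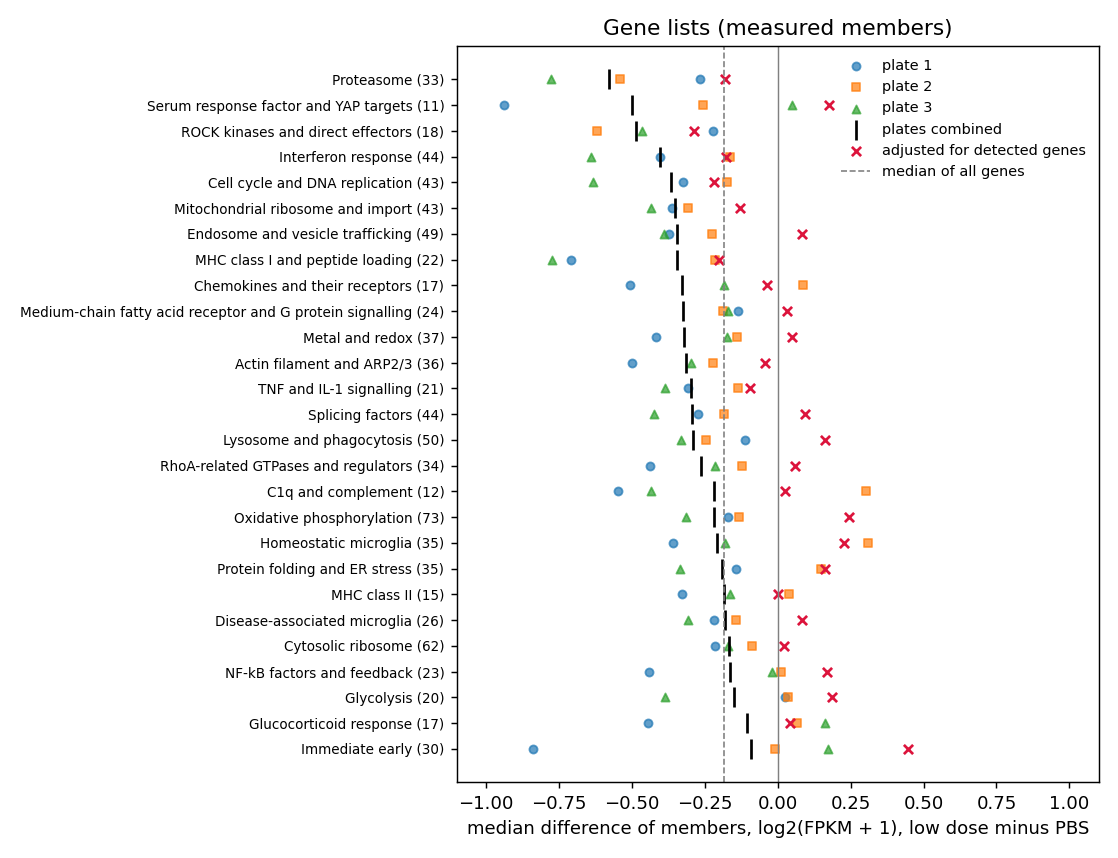
Median difference of mean log2(FPKM + 1), low dose minus PBS, over the measured members of 27 gene lists (number in brackets), on plates 1 to 3 (circle, square, triangle), with plates combined (bar) and adjusted for detected genes (cross); the dashed line is the median of the 4754 genes. All 27 medians were below 0 and 17 were below 0 on every plate, while 9 were below 0 after the adjustment.

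Over the 27 lists 839 distinct genes were measured, with a median of -0.27, and all 27 list medians lay below 0. The median was below 0 on every plate for 17 lists and below 0 after the adjustment for 9. The median of all genes had the same sign, so the members on which each list turned are given below.

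Of 24 genes of the list on medium-chain fatty acid receptors and G protein signalling, 16 were lower, with a median of -0.32 (0.03 adjusted). The list holds stimulatory as well as inhibitory G protein subunits. Rgs19 (-1.41), which shortens signalling by inhibitory G proteins, and Arrb2 (-1.20), the arrestin that uncouples and internalises receptors, were past the fold. Gnas was past it in the higher direction, and Gnb1, the beta subunit, was at 0.57 on like signs (0.69, 0.17 and 0.86). The inhibitory subunits Gnai2 and Gnai3 were at -0.35 and -0.39 with unequal signs. Of 21 genes of TNF and IL-1 signalling 17 were lower with a median of -0.30 (-0.10 adjusted), and none was past the fold. The receptor Tnfrsf1a was at -0.66 (13 and 20 cells), and Il1b was in only 6 and 10 cells (-0.32). Of 23 NF-kB genes 14 were lower, with a median of -0.16 (0.17 adjusted). Nfkbia, the inhibitor that is itself a target of NF-kB, was at -1.11 (-0.20 adjusted, and 0.57 in the cells of 2000 or more detected genes), whereas Rela (0.93) and the kinase gene Ikbkb (0.47, in 14 and 6 cells) were higher on all plates. The 30 immediate early genes had a median of -0.09 (0.45 adjusted) with a plate 1 value of -0.84 and a plate 3 value of 0.17, and none of them was past the fold.

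C1q, which together with Tnf and Il1a is known from the signals that microglia send to astrocytes, did not share their direction. C1qa, C1qb and C1qc were in every cell and stood at 0.51, 0.55 and 0.71, above 0 on plates 1 and 2 and below 0 on plate 3. C1qa had a mean of 10.5 ± 2.29 (SD, 47 cells) in the low dose and 9.90 ± 2.92 (SD, 46 cells) in PBS. The difference was smaller than either SD. This also held for genes with larger differences, such as Clic1 (-2.54, SD 3.70 and 2.83) and Lyz2 (-1.65, SD 4.05 and 3.46). Of the 12 complement genes measured, 8 were lower with a median of -0.22 (0.03 adjusted), and Itgb2, the beta chain of complement receptor 3, was past the fold (-1.33; -1.17, -1.29 and -1.53; -0.66 adjusted).

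Homeostatic and disease-associated genes each lay in both directions. Of 35 homeostatic genes 20 were lower with a median of -0.21 (0.23 adjusted), and Fcrls (-1.27) was past the fold. Gpr34, a lysophospholipid receptor, was higher on all plates (0.57; 0.52, 0.33 and 0.87), while Golm1, a Golgi membrane protein, was lower on all (-0.87; -0.73, -0.88 and -0.98). Tmem119 (0.06), P2ry12 (0.17) and Trem2 (0.27) had unequal signs. Of 26 disease-associated genes 15 were lower with a median of -0.18 (0.08 adjusted), and 5 were past the fold: Lyz2, B2m, Ctsl (-1.09), Apoe (-1.02) and Cst7 (-1.01). In the same list Ctsd, Ctsb and Timp2 were higher on all plates. The lysosome list held 34 lower of 50 with a median of -0.29 (0.16 adjusted), and Psap, Fcgr1 (-1.17, and 0.21 in the cells of 2000 or more detected genes), an Fc receptor, and Ctsl were past the fold. The proteases of that list parted, with Ctsl and Ctsh (-1.01) lower and Ctsb, Ctsd, Ctsz (0.51) and Ctss (0.43) higher, the last 2 and Ctsh with unequal signs on the plates.

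Antigen presentation by MHC class I was lower for 19 of 22 genes, with a median of -0.35 (-0.71, -0.22 and -0.78; -0.20 adjusted). Past the fold were H2-Q6 (-1.67), Psmb8 (-1.34), B2m and H2-D1, and a further 7 members were lower on all plates, among them H2-K1 (-0.72), the peptide transporter Tap1 (-0.83, in 8 and 16 cells) and the proteasome activator Psme2 (-0.87). No member was higher on all plates. Of the 4754 genes of the main comparison, 1165 were lower and only 368 higher on all plates. H2-Q6 has the near-identical copy H2-Q7 (-0.31), so reads may be divided between them. For MHC class II, 10 of 15 were lower with a median of -0.18 (0.0019 adjusted), and H2-DMa (-1.55) and Cd74 were past the fold. H2-DMa and H2-DMb1 encode the alpha and beta chains of the molecule that loads peptides on class II, and they lay in opposite directions (-1.55 in 26 and 36 cells, 0.96 in 31 and 29). H2-DMa shares exon bases with Brd2, and H2-DMb1 has the copy H2-DMb2 (0.40).

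Interferon response genes were lower for 36 of 44, with a median of -0.40 (-0.40, -0.16 and -0.64; -0.18 adjusted), and 6 were past the fold in the lower and none in the higher direction. They were the antiviral membrane proteins Ifitm3 (-1.87) and Ifitm2 (-1.81), the oligoadenylate synthetase Oas1a (-1.43), the interferon gamma receptor chain Ifngr1 (-1.36), Lgals3bp (-1.13) and Slfn2 (-1.01). A further 15 were lower on all plates, as were 1165 of the 4754 genes of the main comparison. Examples were the ubiquitin-like Isg15 (-0.85, in 17 and 25 cells) and Trim30a (-0.90, in 9 and 20). The Ifit genes did not share this: Ifit1 was at 0.10 and Ifit2 at 0.19, with unequal signs on the plates, and Irf9, a subunit of the interferon-activated transcription factor, was higher on all plates (0.61). Ifitm3 had an FPKM of 0 to 9460 with a median of 5.62 in the low dose and 0 to 5968 with a median of 159 in PBS, and was in 39 and 44 cells. As for Cd74, its mean FPKM was higher in the low dose (998 against 755), and with the log2 ratio of mean FPKM its value was 0.42. Ifitm2 was in 11 and 26 cells, and it has near-identical copies.

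The promoters of Ifitm3, Ifitm2 and Oas1a are shown as the members past the fold that hold the interferon-stimulated response element, searched as TTTCNNTTTC on both strands with overlaps allowed. They are RefSeq windows of the same extent on GRCm38.p6, all on the minus strand, at chr7:141010695-141010994, chr7:140955912-140956211 and chr5:120907476-120907775, printed in the direction of transcription with matches in capitals.
Ifitm3: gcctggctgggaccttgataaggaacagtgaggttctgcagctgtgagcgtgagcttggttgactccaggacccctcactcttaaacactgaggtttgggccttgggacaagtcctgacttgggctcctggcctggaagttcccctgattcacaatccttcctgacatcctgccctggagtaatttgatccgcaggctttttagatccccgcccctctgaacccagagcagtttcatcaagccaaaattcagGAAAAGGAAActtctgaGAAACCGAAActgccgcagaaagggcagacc
Ifitm2: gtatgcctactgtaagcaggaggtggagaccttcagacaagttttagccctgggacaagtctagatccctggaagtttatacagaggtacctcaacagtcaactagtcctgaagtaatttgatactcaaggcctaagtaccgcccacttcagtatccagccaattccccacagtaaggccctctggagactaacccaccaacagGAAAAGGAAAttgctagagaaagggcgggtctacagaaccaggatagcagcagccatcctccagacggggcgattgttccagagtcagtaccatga
Oas1a: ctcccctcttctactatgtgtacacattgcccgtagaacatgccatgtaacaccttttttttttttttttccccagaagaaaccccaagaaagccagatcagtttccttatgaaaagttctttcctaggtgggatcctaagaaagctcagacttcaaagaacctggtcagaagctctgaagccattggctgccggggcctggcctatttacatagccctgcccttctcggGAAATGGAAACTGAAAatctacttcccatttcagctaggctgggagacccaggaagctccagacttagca
Ifitm3 and Oas1a hold 2 matches and Ifitm2 holds 1. A match was present in 3.44% of all windows and, counted by gene, in 3.99% of all genes with a window, in 18 of the 34 interferon genes with a window and in 3 of the 6 past the fold, so the members past the fold held it about as often as the list.

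Metal and redox genes were lower about as often as all genes, of which 63.3% were. Of 37 measured, 23 were lower (Mt1 among the others) with a median of -0.32 (0.05 adjusted), and Clic1, Txn1 (-1.99) and the metal transporter Slc11a1 (-1.0) were past the fold. Txn1, thioredoxin, was in 24 low-dose and 33 PBS cells with plate values of -2.69, -2.94 and -0.34. The ferritin chains Fth1 (0.19) and Ftl1 (0.28) were in every cell with unequal signs on the plates, and the factor that drives metallothionein genes, Mtf1, was in 8 and 5 cells (0.12). The 17 genes of the glucocorticoid response, which also holds Mt1, had a median of -0.11 (0.04 adjusted), with Tsc22d3 at 0.49 and Fkbp5 at -0.11, both with unequal signs.

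The proteasome and oxidative phosphorylation lists had 18.2% and 12.3% of their measured members past the fold in the lower direction. Such shares were not particular to them. The disease-associated list had 19.2%, MHC class I 18.2%, ROCK kinases and effectors 16.7%, interferon response 13.6%, MHC class II 13.3% and cytosolic ribosome 12.9%. The share was 2.39% for all genes in 10% or more of cells. It was 4.94% for the 4754 genes of the main comparison, which asked for a larger share of cells. Whether these lists differ from other genes found in as many cells was not tested. The proteasome list had the lowest median of all, -0.58 (-0.27, -0.54 and -0.78; -0.18 adjusted), with 26 of 33 lower and 6 past the fold, Psmd3, Psmb3 (-1.41), Psmc5 (-1.40), Psma7 (-1.25), Psmd7 (-1.14) and Psmd4 (-1.04), which come from the core, base and lid of the particle. Its median was 0.26 with the log2 ratio of mean FPKM. In oxidative phosphorylation 47 of 73 were lower with a median of -0.22 (0.24 adjusted), and 9 were past the fold, 6 of them Nduf genes of complex I, with Cox8a (-1.38), Atp5g3 (-1.61) and Atp5o (-1.09). Cox4i1 (0.90) and Atp5g1 (0.71) were higher on all plates. In glycolysis 14 of 20 were lower with a median of -0.15 (0.18 adjusted), and Hk2 (-1.19), the hexokinase at its start, and Aldoa (1.09) were past the fold in opposite directions. Of 35 genes of protein folding 24 were lower with a median of -0.19 (0.16 adjusted), and the mitochondrial chaperonin Hspd1 (-1.47) was past the fold. Its mean FPKM was 124 in the low dose and 118 in PBS, and with the log2 ratio of mean FPKM it was at 0.10.

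The remaining lists are given by their members past the fold. Of 62 cytosolic ribosomal genes 39 were lower with a median of -0.17 (0.02 adjusted), 8 were past the fold in the lower direction and 2, Rpl7a (1.26) and Rps13 (1.22), in the higher direction. Both of these, and Rpl4 among the 8, have near-identical pseudogenes. Of 43 genes of the mitochondrial ribosome and import 32 were lower with a median of -0.35 (-0.13 adjusted), with Timm10 (-1.48), Mrpl20 (-1.32) and Mrps21 (-1.22) on one side and Mrpl16 (1.07) and Mtch1 (1.2) on the other. Endosome and vesicle genes were lower for 35 of 49 with a median of -0.35 (0.08 adjusted). Snx3, a sorting nexin, led them (-2.04; -0.98, -1.27 and -3.86), and the small GTPase Arf5 was higher (1.08). Of 44 splicing factors 34 were lower with a median of -0.29 (0.09 adjusted), with Snrpd1 (-1.66), Sf3b1 (-1.33) and Snrpf (-1.02) past the fold and Srsf9 (1.21) past it in the higher direction. Cell cycle genes were lower for 37 of 43 with a median of -0.37 (-0.22 adjusted), led by Nme1 (-2.04), a nucleoside diphosphate kinase, and Dek (-2.02), a chromatin protein. Markers of dividing cells were rare in both groups, with Mki67 in 2 and 5 cells and Top2a in 5 and 9.

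Besides the pseudocount of 10, 9 other settings used every plate, and some genes kept a difference of 1 or more in all 9. These were 19 of the 235 in the lower direction and 7 of the 24 in the higher direction. With a pseudocount of 10 as well they numbered 5 and 2, and Mt1 was 1 of these 2. Among the lower set were genes described above (Psmd3, Rps6ka1, Dek, Apmap, Gpr108, H2-Q6 and Timm10) and Nudt2, Spag7, Dnajc8, Cpd, Glud1, Cwc15, Tmem167, Rbfaos, Dck, Fyttd1 and Gm12356. Glud1, the mitochondrial glutamate dehydrogenase, was at -1.52 (-2.16 to -1.05 over the 10 values), Cpd, a carboxypeptidase of the trans-Golgi, at -1.60 (-2.56 to -1.30), and Dck, which phosphorylates deoxycytidine, at -1.24 (-2.82 to -1.04). Gm12356 is a gene model that overlaps Psmd3. The higher set was Mt1, Gnas, Dtx4, Clptm1l, Tmem208, Cops6 and Gm20721, the last an antisense gene model at Gnas. Cops6, a subunit of the COP9 signalosome, was at 1.02 (1.02 to 1.50). Clic1, Ccl2, Lyz2 and Psap were below 0 in each of these 9 settings and with the pseudocount of 10, without being past the fold in all of them.

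The higher dose was compared with the same 46 PBS cells, so its values are not independent of those above and are set beside them only. Clic1 was at -2.54 at the low and -2.42 at the higher dose, and Ccl2 at -2.46 and -1.75. Lyz2 was at -1.65 and -1.06 and Cd74 at -1.29 and -0.17. For Gpr84 the values were -0.53 and -1.67, for Tnf -0.99 and -1.41 and for Il1a -0.73 and -1.31. For Mt1 they were 2.20 and 0.29, for Gnas 1.21 and 0.49, and for Aldoa 1.09 and -0.29. Whether the doses differ for any of these genes was not tested.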

How the data were processed

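Single cells were sorted by flow cytometry, lysed, and their cDNA amplified and tagmented with the Nextera XT kit, per the labels' protocols. The authors deposited FPKM values for 55364 genes and 144 cells, with gene lengths, in a single table. Build GRCm38.p6 (mm10), featureCounts 1.6.1, STAR 2.7.2b, cutadapt 1.16, Trimmomatic 0.36 and Trim Galore 0.4.4 are named, per the submitters' processing notes. Their order, settings and use of strand are not given in the sources used here. No molecular identifiers are named, so intervals cover counting error only. FPKM multiplied by length summed to a constant in each cell, and the most frequent positive product was taken as 1 read. Over cells a median of 52.0% of positive values were whole reads within 0.01 read, so no count model was used. Mitochondrially encoded genes were not analysed here, and a few named genes are not reported here.

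A cell was kept with 1000 or more genes at FPKM 1. A difference was the mean of 3 plate differences of mean log2(FPKM + 1), a scale that understates differences of low genes. Genes that 25% or more of either group had at that FPKM were compared, and list members at 10%. With 1 sample a group no test was run. The adjustment removed each gene's slope on the log2 number of detected genes, fitted within groups and plates. Thinned values are expected values at 300000 reads. Intervals are Clopper-Pearson at 95%. Named genes were the 15 in each direction with the largest smallest-plate difference (without gene models, pseudogenes and mitochondrial genes), Gpr84, Tnf and Il1a, and from each list the 2 members per direction with the largest difference among those of the same sign on all plates. Other members are examples chosen after their values were seen. The cells, lists and rules were chosen with earlier results of these data known. Shared reads were looked for as exon overlap in the deposited coordinates and as transcripts with at least 95% identity over 30% of their length and 200 bases. Alternatives were another pseudocount, pooled means, the ratio of mean FPKM, other limits on cells and genes, the adjustment, rescaling, and leaving out cells with rod markers, cells with few reads or a plate. Python 3.11.15, numpy 2.4.6, pandas 2.3.3, scipy 1.17.1 and matplotlib 3.10.9 were used, and the calculations were tested on simulated data.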

Additional observations from a re-analysis of the deposited data

How the results depend on the processing

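Each group was 1 sample, so the differences carry no replicate check. No paired analysis was possible because each group is 1 sample with no test, and replicate numbers only name cells in accession order; the plates were matched in every difference. With the log2 ratio of mean FPKM and with at least 2000 detected genes, 223 of the 235 lower genes stayed below 0. In the other settings run all 235 did, and the 24 higher genes stayed above 0 in every setting. These genes were chosen by the size of their differences in the same cells, so the kept signs follow in part from the choice. Leaving out a plate could not change these signs, because the genes were chosen for the same sign on all 3 plates. Genes past the fold numbered 709 lower and 81 higher with a pseudocount of 0.1, 25 and 2 with a pseudocount of 10, 368 and 302 with the ratio of mean FPKM, 124 and 255 in the cells of 2000 or more detected genes, and 63 and 111 with the adjustment. Without cells with rod markers 381 were lower, and among genes in at least 50% of cells 15 were higher. Leaving out a plate gave 397 to 437 lower and 59 to 101 higher, where the same sign was asked of 2 plates and not 3 (398 and 101 without plate 1, 437 and 59 without plate 2, 397 and 87 without plate 3). The median of all genes, -0.19, was -0.35 with a pseudocount of 0.1, -0.052 with 10 and -0.025 with no filter on genes. It was above 0 with the ratio (0.0018), with at least 2000 detected genes (0.12) and with the adjustment (0.060). Lists with a median below 0 on every plate, 17, numbered 3, 1 and 2 in these settings. In the same 3 settings the G protein list was at 0.23, 0.19 and 0.030 and the metal and redox list at 0.0068, 0.036 and 0.050. The proteasome list was at 0.26 with the ratio and 0.057 with at least 2000 detected genes, and the endosome list at 0.20 with at least 2000 and 0.084 adjusted. With the ratio Ifitm3 was at 0.42, Hspd1 at 0.10 and Cd74 at 1.32, and with at least 2000 detected genes Fcgr1 was at 0.21 and Nfkbia at 0.57. The share of cells with Tnf, -22.9 points, was -11.6 at an FPKM of 10 and -6.58 with at least 2000 detected genes. That of Il1a, -23.1, was -10.5 at any FPKM above 0, -11.7 at an FPKM of 10, -14.9 after thinning and -7.33 with at least 2000. Detected genes per cell differed by 622.67 in that last setting, which was added after seeing the data and selects cells by the quantity compared. The causes were not tested.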
